A study of Brachypodium distachyon with 6 samples.

Results

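The genes described here are the 6 homologs of a MAP kinase (MAPK) cascade that the study names for *Brachypodium distachyon*, a wild grass used as a model for cereals. They are the genes of its gene list whose symbol contains MPK, MKK, MAPK or YDA, out of 74 named genes and 36647 genes in the count table. *BdMPK3-like* was singled out because its log2 fold change was the lowest of all named genes in the comparison described below, so its values are given as a description without a test. The other 5 genes, *BdYDA1*, *BdYDA2*, *BdMKK4/5-like1*, *BdMKK4/5-like2* and *BdMPK6-like*, came in by their symbol and were tested. The symbols were set around *BdMPK3-like* with earlier results of these data known. All 6 genes had enough counts to enter the fit. Their names rest on the relation to *Arabidopsis thaliana* genes that the study gives, and no sequence was used to check it.

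A MAPK cascade passes a signal through 3 kinases in a row, in which a MAPKK kinase (MAPKKK) phosphorylates a MAPK kinase (MAPKK) and this in turn phosphorylates a MAPK. In *A. thaliana*, the MAPKKK YODA, the MAPKKs MKK4 and MKK5 and the MAPKs MPK3 and MPK6 act below ERECTA receptors and secreted EPF peptides, and restrain entry into the stomatal lineage by acting on bHLH transcription factors such as SPEECHLESS. In *A. thaliana* the MKK4/MKK5 and MPK3/MPK6 steps are also used in signaling after wounding and after contact with pathogens.

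RNA of leaf developmental zones from 3 wk old, soil-grown wild type Bd21-3 plants was sequenced in bulk. By the study's methods, the protoplasted samples came from 10 leaf zones each, with 3 replicates. Their cell walls were digested with Cellulase Onozuka RS and Macerozyme R-10 to release single cells (protoplasts). The non-protoplasted samples, also with 3 replicates, came from 5 undigested leaf zones each. That the 3 libraries labelled protoplasted are the digested ones rests on their titles and library names. The study used the comparison to find genes that protoplasting affects. The zones of several leaves were pooled in a library, and the study calls the libraries biological replicates.

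Groups follow the title and library name of the samples, whereas the treatment entry in the labels gives the opposite group for all 6 samples. Each direction below therefore holds for the groups as titled and turns round with the treatment entry. Total counts ran from 23021800 to 24621927 in the libraries labelled protoplasted and from 17482438 to 24045979 in those labelled non-protoplasted. In both groups replicate 1 differed more from replicates 2 and 3 than these did from each other, and by more in the group labelled protoplasted. The chi-square of the counts per degree of freedom was 45.8 and 38.6 against replicate 1 and 11.9 between the other two in the group labelled protoplasted, and 17.8 and 10.9 against replicate 1 and 6.87 between the other two in the group labelled non-protoplasted. Of 16 tissue marker genes chosen from the study's list, 13 passed the filter on low counts. Of these, 9 were called higher and 1, the vascular *BdVND-like2*, lower in the libraries labelled protoplasted (edgeR, adjusted p under 0.05). Over all genes tested, 38.7% were higher and 38.3% lower. The choice left out other genes that the study shows as shoot apex and early vasculature markers. Among them, *BdSLAH2* had a log2 fold change of -6.71, whereas *BdWOX4* had 1.55 and *BdCRC* 2.95. The 3 epidermal markers summed to 231 to 327 CPM (counts scaled to the TMM-adjusted library size) in the libraries labelled protoplasted and to 52.4 to 66.8 CPM in those labelled non-protoplasted. Most of this difference lay in *BdPDF1*, with 192.5 ± 35.5 CPM in the group labelled protoplasted and 17.5 ± 2.34 CPM in the other group (SD, n = 3 each), while *BdHDG2-like* was not called (log2 fold change 0.36, with an adjusted p of 0.07 in edgeR). The 8 genes taken as vascular markers summed to 283 to 322 CPM in the group labelled protoplasted and to 104 to 110 CPM in the other group. Most of both sums was *BdXCP1-like*, with 202.3 ± 6.91 CPM and 68.3 ± 1.47 CPM in these groups (SD, n = 3 each). The 8 genes include *BdPIN1a* and *BdPIN1b*, which the study ties to leaf primordia and inner meristem. It did not rely on *BdPIN1b* to annotate clusters. The mesophyll marker *BdLHCA6* stood at 50.8 to 58.8 CPM in the group labelled protoplasted and at 27.1 to 30.4 CPM in the other group. *BdSTOMAGEN-1*, which the study also used to annotate mesophyll, is given below with the ligands. The shoot apex genes *BdKN1* and *BdKNAT1-like* were at 0 in every library. The marker levels thus moved with the group, and their part in the results below was not tested. In bulk RNA, fewer cells of a type and less RNA per cell cannot be told apart.

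*BdMPK3-like* was the lowest of the 6 cascade genes in the libraries labelled protoplasted and the highest in those labelled non-protoplasted. Both MAPKK genes were lower in the libraries labelled protoplasted as well, *BdMKK4/5-like2* by the larger step. *BdMPK6-like*, the second MAPK, and *BdYDA2* were higher there, while *BdYDA1* was lower by the smallest step and lost its call under some other scalings. The 2 MAPKs of the cascade thus differed between the groups in opposite directions.

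*BdMPK3-like* (BdiBd21-3.1G0885800, length 2567 bases in the authors' table) is the homolog of *AtMPK3*, one of the pair of MAPKs at the end of the cascade. It had 46, 38 and 41 counts in the libraries labelled protoplasted, against 18067, 20135 and 21129 counts in the libraries labelled non-protoplasted. Even the highest count of the libraries labelled protoplasted, with an exact 95% Poisson interval of 33.7 to 61.4 counts that covers counting error only, lay far below the lowest count of the other group. The libraries labelled protoplasted therefore held transcripts of the gene above the level of 3 counts, so that it was low rather than undetected there. In TPM, in which counts are divided by gene length and then set to a common total per library, the levels were 2.09, 1.51 and 1.70 in the libraries labelled protoplasted and 1087, 898.7 and 961.7 in those labelled non-protoplasted. The mean was 1.77 ± 0.295 TPM in the libraries labelled protoplasted and 982.6 ± 96.1 TPM in those labelled non-protoplasted (SD, n = 3 each), and the replicates of a group differed by far less than the groups.

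The fitted log2 fold change of *BdMPK3-like* was -9.42 ± 0.23 (SE), given here without a test. It came from edgeR's quasi-likelihood fit of the counts after TMM scaling of the libraries, and the standard error is approximate, as the size of the log2 fold change over the square root of the F statistic. Of 23677 genes in the fit, 335 had a lower log2 fold change. Among the 69 named genes in the fit, the next lowest was *BdSLAH2*, a homolog of an *A. thaliana* anion channel gene, with a log2 fold change of -6.71 ± 0.29 (SE), and *BdMKK4/5-like2* was number 4 in this order.

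**Figure D1:**
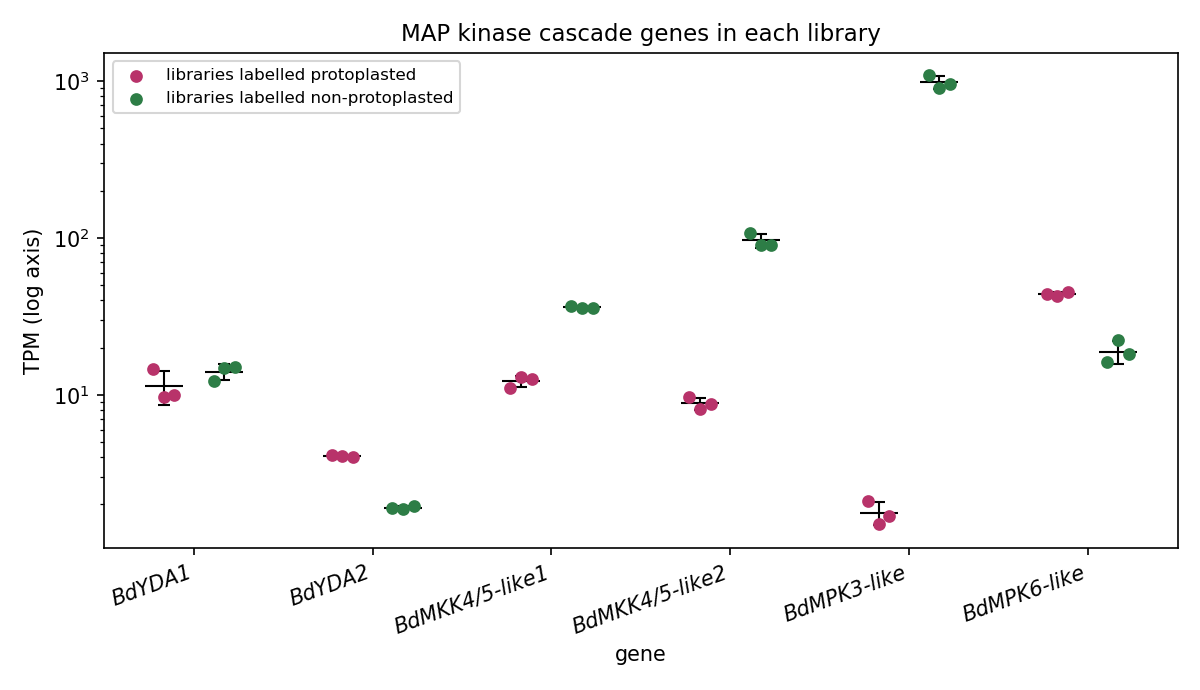
Level of the 6 cascade genes in TPM on a log axis, with 1 point per library, the mean as a bar and the SD as an error bar (n = 3 libraries per group, labelled protoplasted on the left and labelled non-protoplasted on the right of each gene). *BdMPK3-like* lies at 1.51 to 2.09 TPM and at 898.7 to 1087 TPM in these groups, and the points of *BdYDA1* overlap.

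The gene was then placed among all 36632 genes with a length. In the libraries labelled protoplasted it held rank 18780, 19648 and 19253 by TPM, so that 46.4% to 48.7% of all genes stood below it. In the libraries labelled non-protoplasted it held rank 106, 131 and 113, with 99.6% to 99.7% of genes below it. By mean TPM it was gene 19335 in the libraries labelled protoplasted and gene 115 in those labelled non-protoplasted. It thus lay near the middle of all annotated genes in the group labelled protoplasted, and among the most abundant transcripts in the other. Since the middle includes genes without counts, its place in the libraries labelled protoplasted was lower, at 20.04% of genes below it on average, when only the genes in the fit were ranked.

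Other genes abundant in the undigested tissue as labelled also differed between the groups. Of the 114 genes with a mean TPM there at least as high as that of *BdMPK3-like*, 100 (87.7%) had a lower mean in the libraries labelled protoplasted, and the median of the 114 genes was 85.4 TPM there. Only 36 of the 114 were below 10 TPM in the libraries labelled protoplasted, and 22 were at or below the mean of *BdMPK3-like*. Looked at from the other side, 653 genes had a mean TPM within 1.1-fold of that of *BdMPK3-like* in the libraries labelled protoplasted. Their median was 1.69 TPM in the libraries labelled non-protoplasted, with 16 of them above 100 TPM. These are descriptions of the contrast that chose the gene. The 114 genes were themselves picked for a high mean in the libraries labelled non-protoplasted. A lower mean of most of them in the other group follows in part from that choice, and is no result about these genes.

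**Figure D2:**
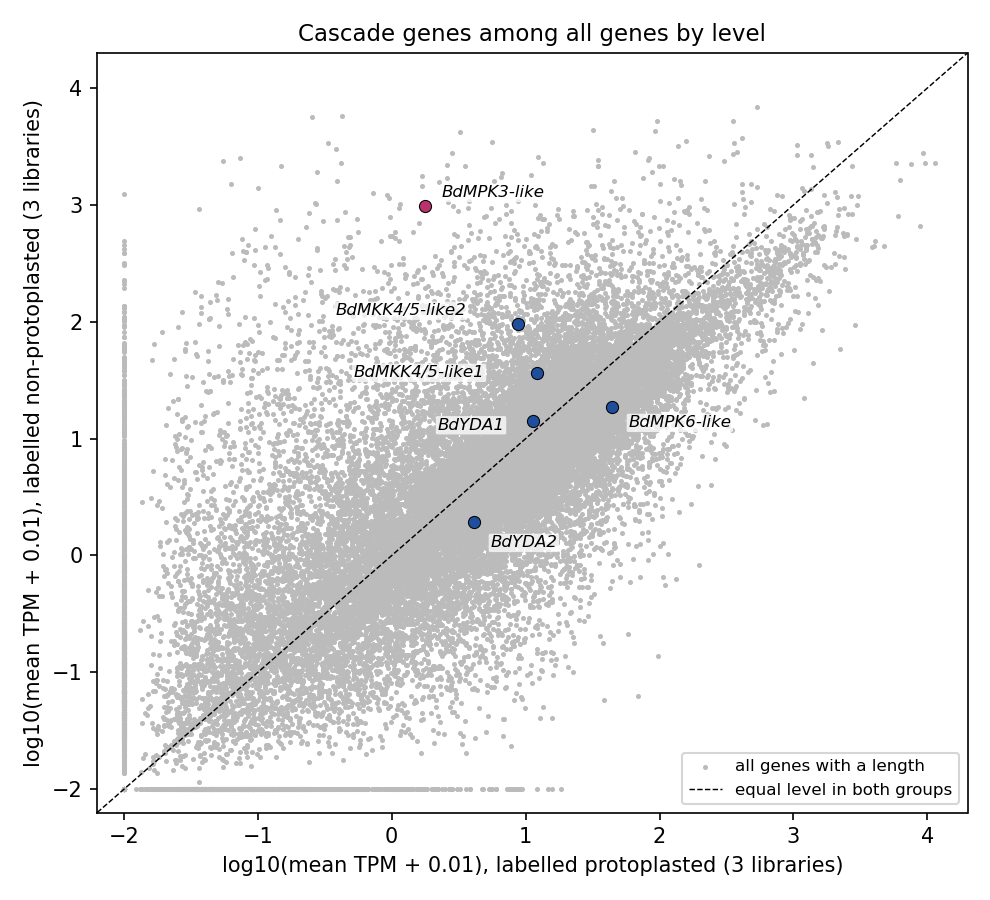
Mean TPM of every gene with a length in the 3 libraries labelled protoplasted (horizontal axis) and the 3 labelled non-protoplasted (vertical axis), each as log10 of the mean TPM plus 0.01, with the 6 cascade genes marked and the dashed line at equal levels. *BdMPK3-like* stands high above the line, with means of 1.77 and 982.6 TPM in these groups, whereas *BdMPK6-like* and *BdYDA2* lie below it.

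The genes most like *BdMPK3-like* were found by the Euclidean distance over the log2 CPM values of the 6 libraries, which takes in both level and difference. The nearest of 23676 genes was BdiBd21-3.4G0285400, at a distance of 0.538. It had 1.63 ± 0.190 CPM in the libraries labelled protoplasted and 991.4 ± 116 CPM in those labelled non-protoplasted (SD, n = 3 each). BdiBd21-3.4G0486300 followed at a distance of 0.909, with 1.81 ± 0.431 CPM and 1243 ± 119 CPM in these groups. For comparison, *BdMPK3-like* itself had 1.54 ± 0.206 CPM and 1054 ± 158 CPM. The table gives no names for these IDs. Of the named genes, *BdMKK4/5-like2* was the nearest at a distance of 7.16, which made it number 610 in the order of all genes, and *BdSERK1/2-like1* followed as number 780 at a distance of 7.65. *BdMKK4/5-like2* encodes a putative kinase of the step before *BdMPK3-like*.

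The gene IDs next to *BdMPK3-like* were examined because reads of overlapping neighbours could be exchanged in counting, and the study does not state whether strand was used. Of the 3 IDs on each side, 5 had enough counts to be tested, with 0 called higher and 3 called lower by edgeR at an adjusted p under 0.05, against 38.7% and 38.3% of all genes tested, so that calls among them were not more frequent than the 77.0% over all genes. The ID directly before it, picked after its values were seen, had 0 counts over the libraries labelled protoplasted, against 82 counts in all in those labelled non-protoplasted. These 82 counts were 0.138% of the 59331 counts of *BdMPK3-like* in the same libraries. Where the IDs lie relative to each other was not analysed here.

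The other 5 cascade genes were compared between the groups with edgeR's quasi-likelihood test and Benjamini-Hochberg adjustment over all 23677 genes tested, with a call at an adjusted p under 0.05. Of these 5 genes, 2 were called higher and 3 were called lower for the libraries labelled protoplasted. Calls were common in this comparison, since 77.0% of all genes tested were called, 38.7% higher and 38.3% lower, so that the number of calls among 5 genes says little about the cascade. Of all calls, 50.2% were higher after TMM scaling and 61.2% with library size as the only scaling. The CPM of the groups did not overlap for any of the 5 genes, which held for 80.5% of all genes tested (40.4% higher and 40.1% lower). The median log2 fold change of the 5 genes was -0.59, and that of all genes tested was 0.04.

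The MAPKKK genes *BdYDA1* and *BdYDA2* are homologs of *AtYDA*, the MAPKKK at the head of the cascade. *BdYDA1* (BdiBd21-3.5G0238000, length 9639 bases) had 14.6, 9.67 and 9.98 TPM in the libraries labelled protoplasted, against 12.2, 14.7 and 15.1 TPM in the libraries labelled non-protoplasted. On the TPM scale the groups overlapped, with replicate 1 of the libraries labelled protoplasted inside the range of the other group. After TMM scaling the log2 fold change was -0.59 ± 0.15 (SE, with an adjusted p of 0.00577 in edgeR), and the gene was no longer called with library size as the only scaling (-0.21, adjusted p = 0.244) or on the log2(TPM + 1) scale (-0.29, adjusted p = 0.162, limma). Scaling by library size raised the median of all genes by 0.38, and relative to that median *BdYDA1* stood at -0.63 with either scaling. Without replicate 1 of the libraries labelled protoplasted its log2 fold change was -0.76 (adjusted p = 0.000118 from edgeR). The call held with RLE, another scaling of the libraries (-0.65, adjusted p = 0.00383 from edgeR), and in DESeq2 (-0.65, adjusted p = 0.000651). The call of *BdYDA1* thus depended on how the libraries were scaled.

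*BdYDA2* (BdiBd21-3.3G0680900, length 12590 bases) had 4.15, 4.07 and 4.03 TPM in the libraries labelled protoplasted, against 1.90, 1.87 and 1.95 TPM in the libraries labelled non-protoplasted. The replicates of each group lay close together, with a coefficient of variation of 1.44% and 1.97% in these groups, and the groups did not overlap. Its log2 fold change was 0.81 ± 0.12 (SE, with an adjusted p of 0.000219 in edgeR). It was called higher under every scaling, filter and left-out library tried. In each library *BdYDA1* stayed above *BdYDA2*, by 3.52, 2.38 and 2.47 times in TPM in the libraries labelled protoplasted and by 6.40, 7.86 and 7.77 times in those labelled non-protoplasted. The log2 ratio of the pair was 1.41 lower in the libraries labelled protoplasted (exact permutation test over libraries, two-sided p = 0.1, the smallest that 3 against 3 libraries allow, also after adjustment over the 2 pairs tested).

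Both MAPKK genes, the homologs of *AtMKK4* and *AtMKK5* that stand between YODA and the MAPKs, were lower in the libraries labelled protoplasted. *BdMKK4/5-like1* (BdiBd21-3.1G0616400, length 2258 bases) had 11.1, 12.9 and 12.5 TPM there, against 36.9, 35.9 and 36.0 TPM in the libraries labelled non-protoplasted. The groups were well separated, and the log2 fold change was -1.86 ± 0.13 (SE, with an adjusted p of 1.26e-06 in edgeR), or 3.63-fold. *BdMKK4/5-like2* (BdiBd21-3.3G0709500, length 2140 bases) had 9.64, 8.10 and 8.74 TPM in the libraries labelled protoplasted, against 108.1, 90.9 and 90.4 TPM in the libraries labelled non-protoplasted. Every library labelled protoplasted was again below every library of the other group, with a log2 fold change of -3.74 ± 0.15 (SE, with an adjusted p of 3.63e-08 in edgeR), or 13.4-fold. Of all genes tested, 12.8% had a larger change in either direction than *BdMKK4/5-like2*, and 31.1% a larger change than *BdMKK4/5-like1*.

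The 2 MAPKK genes changed places in the order of levels. *BdMKK4/5-like1* stood above *BdMKK4/5-like2* by 1.15, 1.59 and 1.43 times in the libraries labelled protoplasted, whereas *BdMKK4/5-like2* stood above *BdMKK4/5-like1* by 2.93, 2.53 and 2.51 times in the libraries labelled non-protoplasted. The log2 ratio of like1 over like2 was 0.46 ± 0.24 in the libraries labelled protoplasted and -1.40 ± 0.12 in those labelled non-protoplasted (SD, n = 3 each), a difference of 1.87 (exact permutation test, two-sided p = 0.1, the smallest possible, also after adjustment over the 2 pairs). A ratio within a library does not depend on how the libraries are scaled. Reads that fit both genes could have been split or lost in counting, so that the separate levels of the pair are uncertain to that extent.

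*BdMPK6-like* (BdiBd21-3.1G0650300, length 6466 bases), the homolog of *AtMPK6* that acts beside *AtMPK3* in *A. thaliana*, had 43.7, 42.7 and 45.4 TPM in the libraries labelled protoplasted, against 16.1, 22.2 and 18.1 TPM in the libraries labelled non-protoplasted. The groups did not overlap, with replicate 2 the highest of the libraries labelled non-protoplasted. The log2 fold change of the gene was 0.94 ± 0.13 (SE, with an adjusted p of 9.65e-05 in edgeR), and it was called higher under every scaling, filter and left-out library tried. Set against *BdMPK6-like* in the same library, *BdMPK3-like* was 20.9, 28.3 and 26.7 times lower in TPM in the libraries labelled protoplasted and 67.4, 40.4 and 53.2 times higher in those labelled non-protoplasted. The log2 ratio of *BdMPK3-like* over *BdMPK6-like* was -4.65 ± 0.23 in the libraries labelled protoplasted and 5.71 ± 0.37 in those labelled non-protoplasted (SD, n = 3 each), which is given without a test because *BdMPK3-like* was chosen by its values. The MAPK with the higher level in TPM was therefore a different one in each group.

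By mean TPM in the libraries labelled protoplasted, the order was *BdMPK6-like* (43.9), *BdMKK4/5-like1* (12.2), *BdYDA1* (11.4), *BdMKK4/5-like2* (8.83), *BdYDA2* (4.08) and *BdMPK3-like* (1.77). Of these neighbours only *BdMKK4/5-like1* and *BdYDA1* overlapped over the 3 libraries. In the libraries labelled non-protoplasted, the order was *BdMPK3-like* (982.6), *BdMKK4/5-like2* (96.5), *BdMKK4/5-like1* (36.3), *BdMPK6-like* (18.8), *BdYDA1* (14.0) and *BdYDA2* (1.91), and no neighbours overlapped. *BdYDA2*, next to last in one group and last in the other, was thus low in both groups, whereas *BdMPK3-like* took both ends of the order. Levels of different genes are compared per length here, and the sources do not state whether the lengths of 2140 to 12590 bases in the table include introns, so that the order of genes rests on these lengths.

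Added up, the 6 genes reached 85.3, 79.0 and 82.3 TPM in the libraries labelled protoplasted and 1263, 1064 and 1123 TPM in those labelled non-protoplasted. *BdMPK3-like* made up 2.45%, 1.91% and 2.06% of these sums in the libraries labelled protoplasted and 86.1%, 84.4% and 85.6% in those labelled non-protoplasted. Without it, the other 5 genes summed to 83.2, 77.4 and 80.6 TPM in the libraries labelled protoplasted and to 175.2, 165.6 and 161.6 TPM in those labelled non-protoplasted. *BdMPK6-like* held the largest share in the libraries labelled protoplasted, with 51.2% to 55.1%, and 1.28% to 2.09% in the libraries labelled non-protoplasted.

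**Figure D3:**
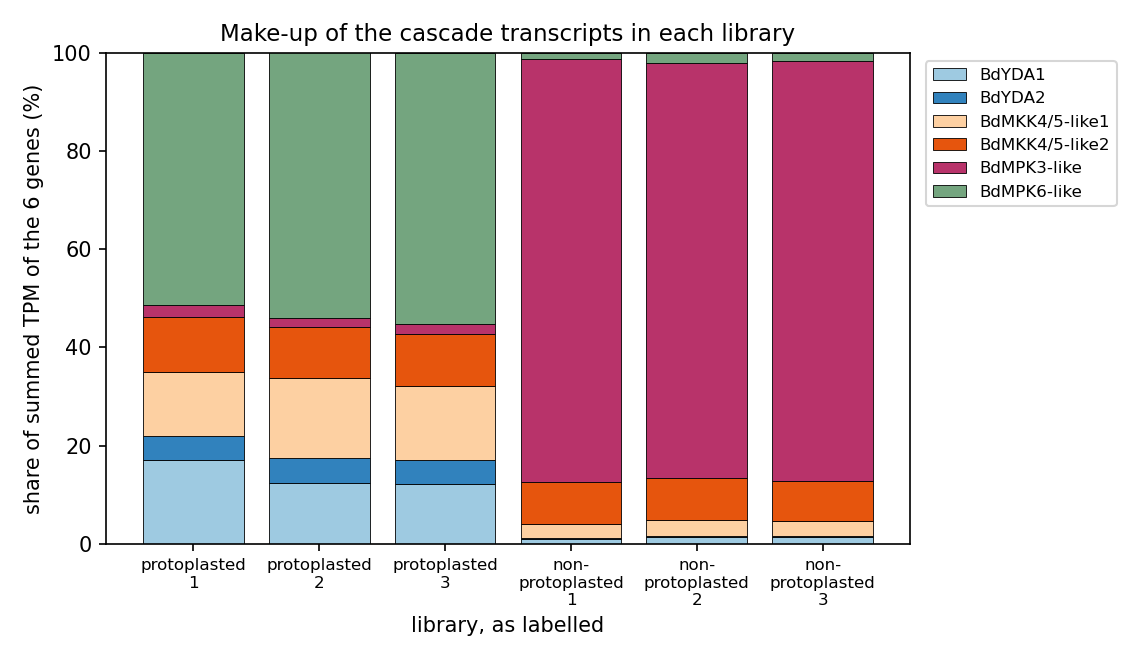
Share of each cascade gene in the summed TPM of the 6 genes (vertical axis, percent), with 1 bar per library and the 3 libraries labelled protoplasted on the left. *BdMPK6-like* fills 51.2% to 55.1% of the bars of the libraries labelled protoplasted, and *BdMPK3-like* 84.4% to 86.1% of those of the libraries labelled non-protoplasted.

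The genes that stand before and after the cascade in the stomatal pathway were taken from the same gene list of the study. Earlier results of these data were known when they were taken. Of 16 ligand, protease, receptor and transcription factor genes, all passed the filter on low counts, with 11 called higher and 2 called lower in the libraries labelled protoplasted by edgeR at an adjusted p under 0.05. Their median log2 fold change was 1.72, against 0.04 over all genes tested, of which 38.7% were called higher and 38.3% lower. Of the 3 epidermal marker genes given above, 2 were called higher in the same libraries, and their part in these values was not tested. Genes without a call, and *BdSERK1/2-like3*, were named after their values were seen. Under a filter of at least 10 counts in all 6 libraries, 5 of the 16 genes left the test, all of them among those called higher. They were *BdSDD1*, *BdTMM*, *BdSPCH1*, *BdSPCH2* and *BdMUTE*. In the main fit these 5 genes passed the filter only through the libraries labelled protoplasted, so that their direction was fixed by it. Of the 11 genes left, 6 were called higher and 3 lower, against 7435 higher and 6967 lower of 19041 genes tested under that filter.

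Of the 3 ligand genes, 2 were higher and *BdEPF2-1* was not called (log2 fold change 0.13, with an adjusted p of 0.692 in edgeR). Over all genes tested, 38.7% were called higher. *BdEPF2-2*, a homolog of the *A. thaliana* peptide that limits stomatal number, had 16.1, 14.9 and 12.3 TPM in the libraries labelled protoplasted, against 1.84, 1.36 and 1.53 TPM in those labelled non-protoplasted (log2 fold change 2.91 ± 0.26 SE, with an adjusted p of 6.07e-06 in edgeR). *BdSTOMAGEN-1*, a homolog of a peptide that promotes stomata in *A. thaliana*, had a log2 fold change of 1.73 ± 0.27 (SE, with an adjusted p of 0.000285 in edgeR). It is also a mesophyll marker of the study. The protease gene *BdSDD1*, whose *A. thaliana* homolog limits stomatal density, had a log2 fold change of 5.00 ± 0.36 (SE, with an adjusted p of 1.43e-06 in edgeR). *BdSDD1* passed the filter only through the libraries labelled protoplasted.

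Among the 6 receptor and co-receptor genes, 3 were higher, 2 lower and *BdSERK1/2-like2* was not called (log2 fold change -0.17, with an adjusted p of 0.19 in edgeR). The shares over all genes tested were 38.7% higher and 38.3% lower. *BdTMM*, homolog of a receptor-like protein that works with ERECTA receptors in *A. thaliana*, had 51, 74 and 76 counts across the libraries labelled protoplasted, against 1, 4 and 5 counts in those labelled non-protoplasted (log2 fold change 3.79 ± 0.39 SE, with an adjusted p of 1.44e-05 in edgeR). *BdTMM* passed the filter only through the libraries labelled protoplasted. The co-receptor gene *BdSERK1/2-like1* went the other way, with 7.99, 6.05 and 5.35 TPM in the libraries labelled protoplasted, against 49.2, 41.2 and 44.7 TPM in those labelled non-protoplasted (log2 fold change -3.10 ± 0.17 SE, with an adjusted p of 2.19e-07 in edgeR). Co-receptors of this family also serve other receptors than ERECTA in *A. thaliana*. The receptors were thus not uniform in direction, and the 2 that were lower, *BdSERK1/2-like1* and *BdSERK1/2-like3*, both belong to this co-receptor family (log2 fold change of *BdSERK1/2-like3* -1.65).

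Of the 6 bHLH transcription factor genes below the cascade, 5 were higher and 0 lower, *BdSCRM2* being the one without a call (log2 fold change -0.30, with an adjusted p of 0.0648 in edgeR). Among all genes tested, 38.7% were called higher and 38.3% lower. *BdSPCH1*, *BdSPCH2* and *BdMUTE* passed the filter on low counts only through the libraries labelled protoplasted. Their direction was thus fixed by the filter, and their calls are no support for a direction of this set. *BdSPCH1*, homolog of the *A. thaliana* factor that MPK3 and MPK6 phosphorylate, had 53, 45 and 51 counts across the libraries labelled protoplasted, against 0, 0 and 1 in those labelled non-protoplasted (adjusted p = 6.87e-06 from edgeR). With so few counts in the libraries labelled non-protoplasted no fold change is given. *BdMUTE*, known in *B. distachyon* for its role in forming subsidiary cells, had 96, 43 and 65 counts across the libraries labelled protoplasted, against 2, 5 and 3 in those labelled non-protoplasted (log2 fold change 3.82 ± 0.48 SE, with an adjusted p of 5.51e-05 in edgeR).

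**Figure D4:**
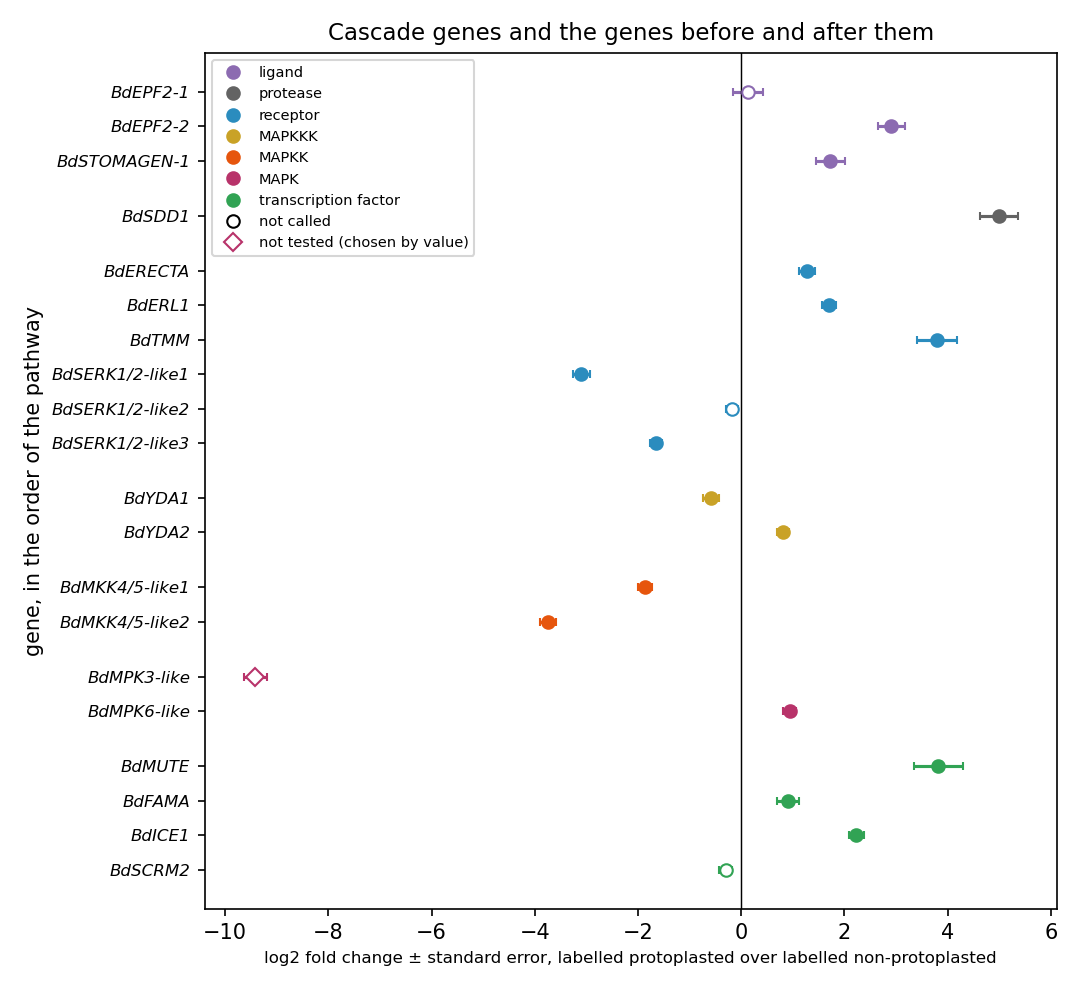
Log2 fold change, labelled protoplasted over labelled non-protoplasted, with its standard error for the 6 cascade genes and the further pathway genes in the order of the pathway. Filled circles passed an adjusted p of 0.05 in edgeR, open circles did not, and the diamond is *BdMPK3-like* (-9.42), which was not tested, while *BdSPCH1* and *BdSPCH2*, with at most 3 counts in any library labelled non-protoplasted, are left out.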

How the data were processed

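The authors mapped the bulk reads with bowtie2 to a Bd21-3 genome, in an earlier version than the one used for their single-cell reads. They counted reads per gene with summarizeOverlaps and deposited raw counts. They also deposited a signal, counts per kilobase of gene length, and TPM, which when recomputed from counts and lengths differed by a relative 1.4e-14 at most; 15 genes had no length. Pooled columns hold the authors' mean TPM per group and were not used. The single-library columns of counts per kilobase were not used either. Counting mode and strand are not given in the sources used here.

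The test on counts was that of edgeR 4.0.16 under R 4.3.3 (filterByExpr with a minimum count of 10, TMM, glmQLFit and glmQLFTest, prior count 0.125), with Benjamini-Hochberg adjustment over 23677 genes. CPM used TMM-scaled library sizes, with 3 counts at 0.106 to 0.205 CPM. The code was run on simulated counts in which few genes changed, whereas 77.0% of the genes tested were called here. That run therefore does not bear on the scaling of these libraries. Alternatives were DESeq2 1.42.0, limma 3.58.1 (voom, or log2 of TPM plus 1 or 0.1), other scalings and filters, a prior count of 2, a replicate block, each library left out, and groups by the treatment entry. Pairs of genes were compared with exact permutation tests in scipy 1.17.1.

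Members and lists were chosen with earlier results of these data known. Named were the 6 cascade genes, up to 2 called pathway genes of each role with the largest change, the nearest genes to *BdMPK3-like* (2 of all genes, 2 of named genes), and the named gene next to it by fold change. IDs were matched as the study's list writes them. The list does not state its genome version, and the gene models of the versions used for bulk and single-cell reads were not compared. The RefSeq table of Bd21 held 0 of these IDs, so sequences were not used here.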

Additional observations from a re-analysis of the deposited data

How the results depend on the processing

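With the groups taken from the treatment entry of the labels, all signs were exchanged by construction, to a log2 fold change of 9.42 for *BdMPK3-like*, 0.59 for *BdYDA1*, -0.81 for *BdYDA2*, 1.86 for *BdMKK4/5-like1*, 3.74 for *BdMKK4/5-like2* and -0.94 for *BdMPK6-like*, and 2 pathway genes were higher and 11 lower. The size of the change of *BdMPK3-like* moved to -9.03 with library size only, to -9.05 on the log2(TPM + 0.1) scale and to -8.48 on the log2(TPM + 1) scale, the last of which understates the change of low genes by construction. In these settings the median of all genes was higher by 0.38, 0.272 and 0.208, and the cause was not tested. *BdYDA1* lost its call in the same 3 settings, with -0.21, -0.31 (adjusted p = 0.167, limma) and -0.29, and no other of the 5 cascade genes tested lost a call under the alternatives listed, the exchanged groups apart. With at least 10 counts in every library, 6 pathway genes were higher, because 5 low genes were removed, and 3 were lower.

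Leaving out each library in turn gave log2 fold changes of -9.525 to -9.304 for *BdMPK3-like*, with 2 cascade genes higher and 3 lower each time, 11 pathway genes higher and 2 to 3 lower. With the replicate number as a block, the log2 fold change of *BdMPK3-like* was -9.41, 2 cascade genes were higher and 3 lower, and 11 pathway genes were higher and 2 lower, so that the block changed no count. The deviations of same-numbered libraries correlated weakly, at 0.121, 0.0379 and 0.0832 across genes, and those of differently numbered ones at -0.0974 to 0.0457. Only replicate 2 of the libraries labelled protoplasted did not correlate best with its own number. The sources do not state whether same-numbered libraries belong together, and these values do not settle it. The share of genes below *BdMPK3-like* moved with the genes ranked, from 20.04% to 49.9% in the libraries labelled protoplasted and from 99.5% to 99.8% in the others. At 38 to 46 counts, counting error limits the level of *BdMPK3-like* in the libraries labelled protoplasted.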
